A study of Homo sapiens with 8 samples.

Results

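The translation initiation and elongation factors described here are the genes whose symbol starts with EIF or EEF followed by a digit, leaving out the eIF2 kinases (EIF2AK genes), with at least 10 reads in 4 or more of the 8 libraries. The deposited table held 65 genes with such a symbol among 16082 genes in all, and 62 of them met that count minimum. Each of the 62 had at least 84 reads in every library, so none entered through one group alone, and all 62 were among the 12001 genes tested. The 3 genes left out were EEF1A2 (1 to 15 reads per library), EIF4EBP3 (0 to 4 reads) and EIF4E1B (1 read in 1 library). The cells were KYSE150, an established human esophageal squamous carcinoma line, sequenced as poly(A) RNA in 4 control libraries and 4 libraries carrying a short hairpin RNA against HNRNPC (shHNRNPC), with no further treatment labelled in either group. The labels do not describe the hairpin sequence or the control construct, and they do not state whether the libraries are separate cultures. The p-values therefore reflect only how far these libraries differ among themselves, which may be technical.

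Eukaryotic initiation factors (eIFs) bring the small ribosomal subunit and the initiator tRNA to the capped end of an mRNA, scan to the start codon and release the factors when the large subunit joins. Elongation factors (eEFs) then deliver aminoacyl-tRNAs and move the ribosome along the message. Several of these steps are points of control: eIF4E-binding proteins hold the cap-binding protein when mTOR is off, and phosphorylation of eIF2 or eEF2 slows initiation or elongation. Many mRNAs of the translation apparatus begin with a cytidine and a pyrimidine run, the 5' terminal oligopyrimidine (TOP) element, through which mTOR controls their translation.

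Library totals were 28323403 to 34913500 reads, and levels are given as CPM, reads per 1000000 reads of the library after scaling with TMM factors. HNRNPC, the gene targeted by the hairpin, was at 601, 590, 571 and 587 CPM in the control libraries and 33.8, 32.9, 32.5 and 36.5 CPM in the shHNRNPC libraries, which matched the labels (log2 fold change -4.12, SE 0.027). Of 10 squamous epithelial markers 9 reached 1 CPM, led by KRT5 and CDH1, while SOX2 had 0 to 4 reads per library. The squamous markers changed in both directions: KRT5, KRT17, CDH1 and EPCAM rose, KRT6A, KRT14, TP63 and DSG3 fell, and PKP1 did not pass. Their sum, most of it KRT5 and CDH1, ranged from 1471 to 1498 CPM in control and from 2364 to 2418 CPM in shHNRNPC libraries. Of markers for other cell types only COL1A1 (fibroblast, 3.25 CPM in control and 7.86 in shHNRNPC libraries) and VWF (endothelial, 1.70 and 0.765 CPM) had a mean of 1 CPM or more in either group. The summed fibroblast markers lay between 3.65 and 3.88 CPM in control and between 8.38 and 9.5 CPM in shHNRNPC libraries. The summed endothelial markers lay between 2.19 and 2.52 CPM in control and between 1.24 and 1.91 CPM in shHNRNPC libraries, and the 3 leukocyte markers measured summed to less than 1 CPM in each library. The part of these markers in the results was not tested. In bulk RNA, fewer cells expressing a gene and less RNA per cell cannot be told apart.

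Most translation factor genes changed, by small amounts and in both directions. Of the 62 genes, 33 fell and 18 rose (edgeR quasi-likelihood test, Benjamini-Hochberg adjusted over the 12001 genes, p below 0.05), and 11 did not pass. Among all genes tested 38.6% fell, 38.7% rose and 77.3% passed in either direction, so the share of these factors that passed (82.3%) was near the background, while the share that fell was 53.2% and the share that rose 29%. The median log2 fold change was -0.16 over the 62 genes and -0.01 over all genes tested. CPM did not overlap between the groups for 49 of the 62 genes (79.0%), against 70.8% of all genes tested. Only 4 fell at least 1.5-fold, against 12.2% of all genes: EIF4EBP1, EEF1A1, EEF2KMT and EEF1G. This list was sensitive at its edge: EEF1G (-0.59) left it without control replicate 4 (-0.58) or shHNRNPC replicate 2 (-0.58), and EIF2D (-0.58) entered it without control replicate 3 (-0.59) or shHNRNPC replicate 4 (-0.60). None rose by that much with edgeR, at adjusted or unadjusted p, or with DESeq2, against 9.61% of all genes. Of the 51 that passed, 47 (92.2%) changed by less than 1.5-fold, against 71.7% of all genes that passed. The spread of log2 fold changes was also narrower, with an SD of 0.33 over the 62 genes and 0.62 over all genes tested. The background was not matched for read count. Each of the 62 genes had at least 84 reads in every library, while the genes tested include some with few. The fibroblast marker LUM, for example, had 4 to 28 reads. Fold changes of genes with few reads are noisier. The part of read count in these differences was not tested.

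**Figure D1:**
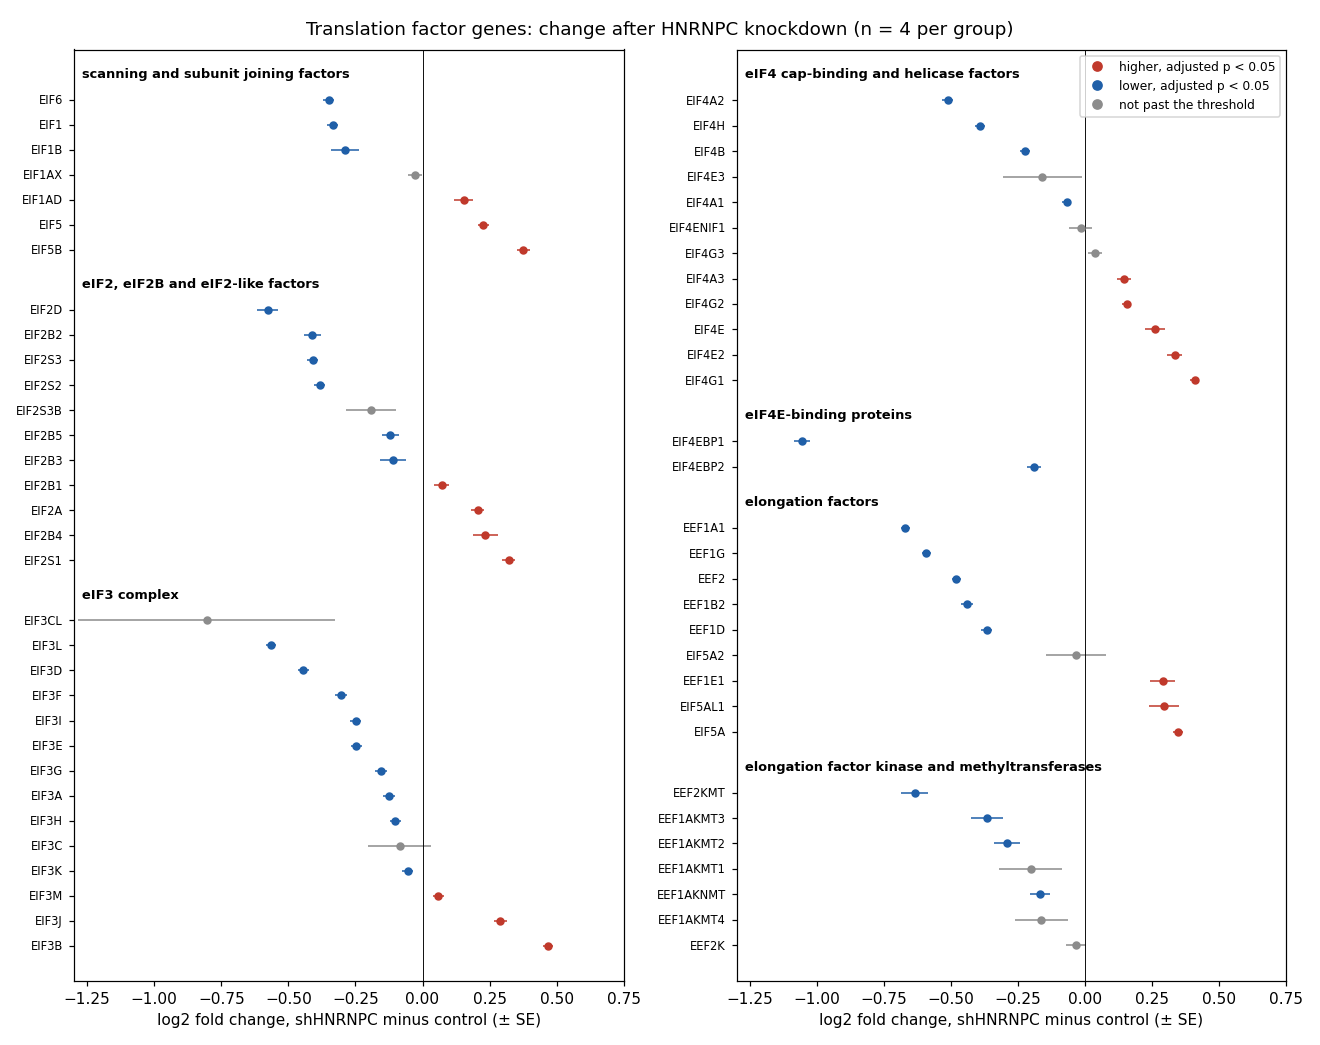
Log2 fold change (shHNRNPC minus control, x axis) with its standard error for each of the 62 translation factor genes, grouped by role; red points rose, blue points fell and grey points did not pass an adjusted p of 0.05 (n = 4 libraries per group). Falls and rises occur within most groups, EIF4EBP1 lies farthest to the left at -1.05, and the widest bar belongs to EIF3CL.

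Transcript starts were examined because many mRNAs of this machinery are TOP mRNAs. RefSeq (GRCh38.p14) start regions matched 50 of the 62 genes by gene identifier; EEF1AKMT1, EEF1AKMT3, EEF1D, EEF2KMT, EIF2S2, EIF3A, EIF3CL, EIF3E, EIF3G, EIF3H, EIF3L and EIF4EBP1 were not matched. A start was counted as TOP-like where the annotated start base was C and opened an unbroken run of at least 5 pyrimidines (C or T, the first C included), on the strand of the gene. By this description 12 of the 50 genes (24%) had a TOP-like start, against 5.46% of 9743 tested genes matched by symbol. The lines below give 5 bases before to 15 bases from the start, with the pyrimidine run in capitals, for TOP-like genes that fell.
EEF1A1, chr6:73521018-73521037, minus strand: acgttCTTTTTCgcaacggg
EEF2, chr19:3985449-3985468, minus strand: gcgttCTCTTCCgccgtcgt
EIF4A2, chr3:186783572-186783591, plus strand: gctgtCTTTTCagtcgggcg
EIF2D, chr1:206612451-206612470, minus strand: cgggcCCTTTTCgcggccgg
EIF3D, chr22:36529152-36529171, minus strand: gtttcCTCTTTTCCTggttt
EIF2S3, chrX:24054951-24054970, plus strand: ccttcCTCTTTTggcaacat
EIF3F, chr11:7987332-7987351, plus strand: gcctcCTTCTTTCTCgacaa
EIF4B, chr12:53006451-53006470, plus strand: cgggtCTTTTgcgttctctt

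These 8 genes, together with EIF3K, make up the 9 TOP-like genes that fell, and EIF2S3B did not pass. The 2 TOP-like genes that rose are printed next for comparison, followed by EIF4G1, EIF5B and EIF5A, the 3 genes with the largest rises after EIF3B, whose starts hold no such run. For EIF3B the RefSeq start used lies inside the annotated gene, so its window is not shown. Windows of the 14 genes without such a run that fell, EEF1G and EEF1B2 among them, are not shown either. The same holds for EIF3K and EIF2S3B.
EIF2A (rose, TOP-like), chr3:150546782-150546801, plus strand: ggtttCTCTTTCCgggacaa
EIF3M (rose, TOP-like), chr11:32583826-32583845, plus strand: gttccCTTTTCCggtcggcg
EIF4G1 (rose), chr3:184314601-184314620, plus strand: gagccggaaatggttgtgga
EIF5B (rose), chr2:99337384-99337403, plus strand: aactcacaccatatgtgtcc
EIF5A (rose), chr17:7306994-7307013, plus strand: acccgaccacactagcgcgc

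Of the 12 genes with a TOP-like start 9 fell, 2 rose and 1 did not pass, with a median log2 fold change of -0.36. Of the 38 others 14 fell, 16 rose and 8 did not pass, with a median of -0.03. The genes without a matched start are in neither set. Among them EEF1AKMT1 and EIF3CL did not pass and all the others fell, from -1.05 (EIF4EBP1) to -0.10 (EIF3H). The contrast of medians therefore leaves out many of the falls. Among all tested genes with a matched start, 49.4% of 532 with a TOP-like start fell (median -0.11) and 38.0% of 9211 without one fell (median 0.00). Without the 62 factors and the ribosomal protein genes, 45.1% of 479 genes with a TOP-like start fell (median -0.07), against 37.9% of 9150 others. These are counts with no test, EIF2S3 and EIF2S3B share their start sequence, and an annotated start is not a measured one. The first 20 bases from the RefSeq start lay within the first 60 bases of a coding GENCODE transcript of the same gene for 31 of the 50 genes; the 19 others include EIF2D and EIF2S3 of the TOP-like genes, and EEF1G and EIF3B of the rest. EEF1G and EEF1B2, whose RefSeq starts hold no such run at the start base, fell as well (-0.59 and -0.44).

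**Figure D2:**
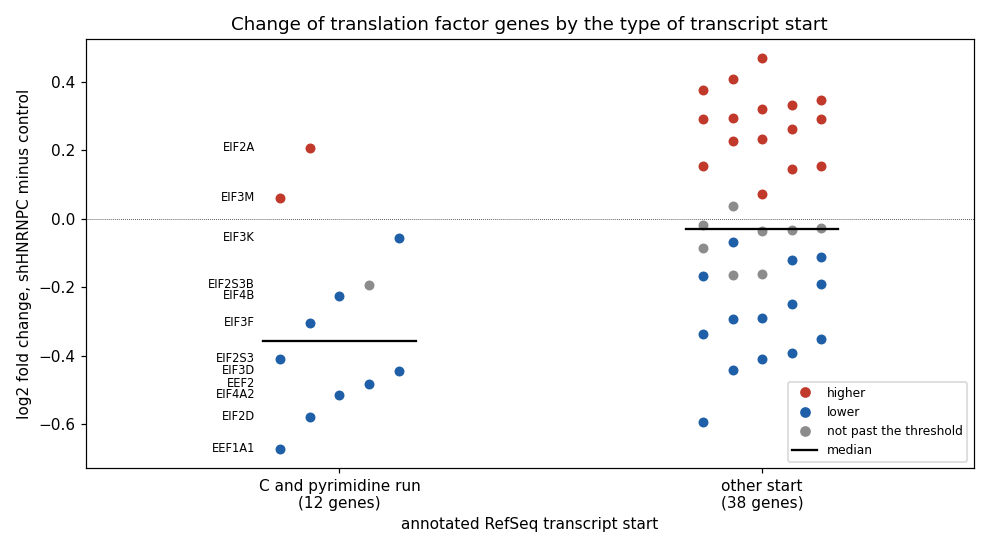
Log2 fold change (shHNRNPC minus control, y axis) of the 50 translation factor genes with a matched RefSeq start, split by whether the start is a C with a run of at least 5 pyrimidines; each point is a gene, coloured by its call, and the black line is the median. The 12 genes with such a start have a median of -0.36 and the 38 others -0.03, with overlapping ranges.

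The core genes of elongation, those of the eEF1 complex and eEF2, all fell. EEF1A1 encodes the GTPase that brings aminoacyl-tRNA to the ribosome and had the most reads of the 62 genes. It was at 16528, 16424, 16008 and 17052 CPM in control libraries and 10221, 10093, 10663 and 10500 CPM in shHNRNPC libraries. The highest knockdown library lay far below the lowest control, at 62.8% of control on average (log2 fold change -0.67, SE 0.018, edgeR adjusted p = 5.2e-36). EEF1A1 alone took 1.66% ± 0.0417 (SD, n = 4) of all reads in control and 1.03% ± 0.0231 in shHNRNPC libraries. It lies on chromosome 6 from 73515750 to 73521032 (RefSeq, GRCh38), and transcripts of 7 other genes or pseudogenes elsewhere in GENCODE release 29 match at least 300 of its bases at 95% identity or more, so its reads may be shared. Its muscle and neuronal paralogue EEF1A2 stayed at or below 15 reads in every library. Near-identical copies by the same measure were found for 19 of the 62 genes. EEF1B2, EIF4A1, EIF4B, EIF2S2 and EIF4E are among these, so their reads may be shared too.

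The subunits of the eEF1B exchange complex, which reloads eEF1A with GTP, moved with it. EEF1G, the gamma subunit, was at 2163, 2135, 2102 and 2178 CPM in control and 1425, 1384, 1458 and 1422 CPM in shHNRNPC libraries (log2 fold change -0.59, SE 0.018, edgeR adjusted p = 1.25e-39). Its groups were well separated, although 99.9% of its exon bases also belong to an overlapping readthrough gene on the same strand. EEF1B2, which carries the exchange activity, fell from 262 ± 4.65 to 193 ± 5.47 CPM (SD, n = 4; -0.44), and EEF1D, the delta subunit, from 355 ± 4.32 to 275 ± 7.32 CPM (-0.37). EEF2, the translocase, was at 5677, 5461, 5479 and 5504 CPM in control and 3900, 3899, 3972 and 4073 CPM in shHNRNPC libraries (-0.48, SE 0.017, edgeR adjusted p = 2.1e-35), again without overlap. These 5 genes had log2 fold changes from -0.67 to -0.37, and EEF1A1 and EEF2 are among those with the TOP-like starts printed earlier. Per kilobase of merged exons EEF1A1 (3206 CPM per kb in control), EEF2 (1748) and EEF1G (1408) were the 3 highest of the 61 translation factor genes with a GENCODE length, followed by the helicase EIF4A1 (969).

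Of the 4 other genes of this group 3 rose. EIF5A encodes the hypusine-containing factor that helps ribosomes through difficult peptide bonds and aids termination. It was at 745, 717, 728 and 748 CPM in control and 911, 937, 948 and 939 CPM in shHNRNPC libraries (0.35, SE 0.018, edgeR adjusted p = 2.8e-26), with every knockdown library above every control. EIF5AL1, a near-identical copy of it, was at 20.3, 21.4, 21.8 and 23.9 CPM in control and 25.0, 25.8, 27.8 and 28.5 CPM in shHNRNPC libraries (0.29, SE 0.056). Reads of these 2 genes can be exchanged, and with their counts summed the change was 0.35 (SE 0.018). EIF5A holds most of the summed reads, so the sum does not show whether EIF5AL1 itself changed. The minor paralogue EIF5A2 was at 5.78 ± 0.366 and 5.64 ± 0.403 CPM and did not pass (-0.03, edgeR adjusted p = 0.791). EEF1E1, which despite its name is a scaffold of the multi-tRNA synthetase complex, rose from 34.9 ± 1.06 to 42.6 ± 3.38 CPM (0.29), with 26.9% of its exon bases shared with a readthrough gene. Over all 9 genes of this group the share of reads went from 2.58% ± 0.0461 to 1.71% ± 0.0315 of each library. By count, 5 of the 9 fell, 3 rose and 1 did not pass (88.9% passed, against 77.3% of all genes tested).

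Enzymes that modify the elongation factors fell or did not pass: 4 of 7 fell and 3 did not pass. The share that passed was 57.1%, against 77.3% of all genes tested, a difference that 7 genes are too few to interpret. EEF2KMT, which methylates eEF2, was at 39.0, 36.5, 38.0 and 34.5 CPM in control and 22.6, 23.8, 25.2 and 23.5 CPM in shHNRNPC libraries (-0.64, SE 0.050, edgeR adjusted p = 5.1e-18). No library crossed between the groups, but 35.1% of its exon bases overlap ALG1 on the opposite strand and it has 4 partial near-identical copies, so this value is uncertain. The eEF1A lysine methyltransferases EEF1AKMT3 (-0.37) and EEF1AKMT2 (-0.29, 43.0% of exon bases overlapping another gene) fell, as did EEF1AKNMT (-0.17), which methylates the eEF1A N terminus and a lysine. EEF1AKMT1 (-0.20, edgeR adjusted p = 0.103) and EEF1AKMT4 (-0.16, edgeR adjusted p = 0.12) did not pass at low levels, with control means of 5.9 and 7.5 CPM. EEF2K, the kinase that inhibits eEF2, was at 57.1 ± 1.64 and 55.7 ± 1.73 CPM and did not pass (-0.04, edgeR adjusted p = 0.382).

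**Figure D3:**
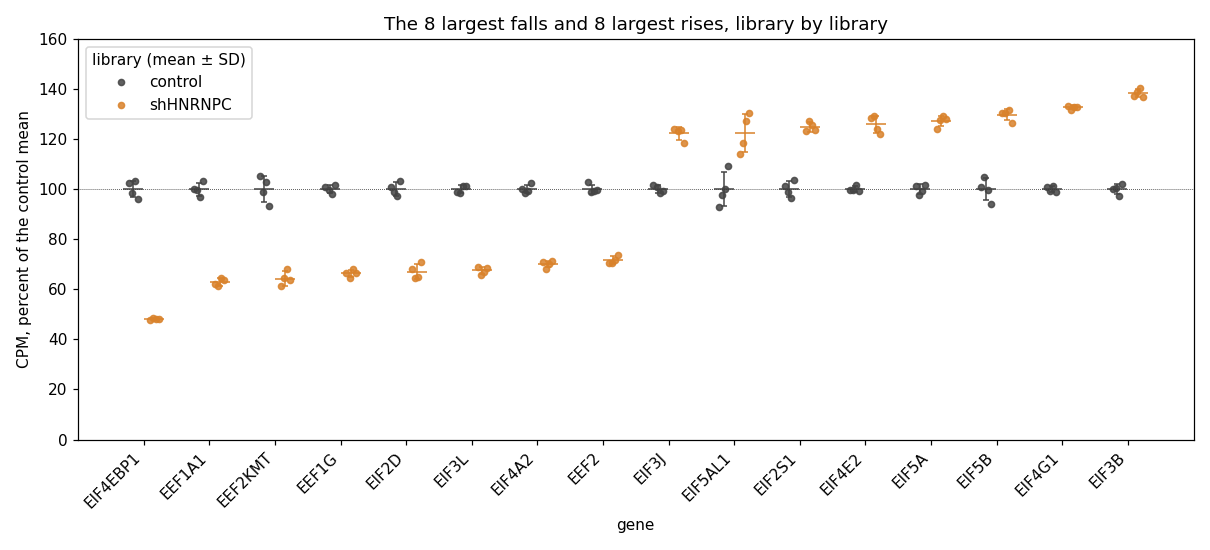
CPM of each library as a percentage of the control mean (y axis, starting at 0) for the 8 genes that fell most and the 8 that rose most among translation factors past the threshold with at least 1 CPM and no overlap between groups; points are libraries (grey control, orange shHNRNPC), bars the mean ± SD. The shHNRNPC libraries of EIF4EBP1 cluster at 48.1% of control, and those of EIF3B reach 138%.

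Of the cap-binding side of initiation, the repressor fell most. EIF4EBP1 encodes 4E-BP1, the mTOR-regulated protein that keeps eIF4E from eIF4G and is a known target of the transcription factor ATF4. It was at 133, 128, 134 and 125 CPM in control and 62.2, 63.2, 63.0 and 62.6 CPM in shHNRNPC libraries. The knockdown libraries were close to each other, at 48.1% of the control mean (log2 fold change -1.05, SE 0.030, edgeR adjusted p = 1.0e-40). EIF4EBP2, its paralogue, fell less, from 149 ± 2.81 to 130 ± 3.05 CPM (-0.19, SE 0.025). ATF4 was lower as well (-0.71, SE 0.020), and its part in the fall of EIF4EBP1 was not tested. EIF4E, the cap-binding protein itself, was at 49.9, 49.7, 48.5 and 47.8 CPM in control and 59.7, 57.5, 59.5 and 58.1 CPM in shHNRNPC libraries (0.26, SE 0.037, edgeR adjusted p = 4.4e-09). The cap-binding protein gene thus rose while EIF4EBP1 and EIF4EBP2 fell, each without overlap between the groups. EIF4EBP3, another gene for an eIF4E-binding protein, had 0 to 4 reads per library and was not tested.

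The scaffold and helicase genes of the eIF4F complex split by paralogue. EIF4G1, the main scaffold that bridges eIF4E, eIF4A and eIF3, was at 970, 954, 973 and 949 CPM in control and 1282, 1266, 1278 and 1278 CPM in shHNRNPC libraries (0.41, SE 0.017, edgeR adjusted p = 2.7e-31), the largest rise of the eIF4 genes. EIF4G2, a shorter scaffold that lacks the eIF4E site and serves cap-independent initiation, rose from 1158 ± 8.54 to 1289 ± 11 CPM (0.15), and EIF4G3 was at 116 ± 3.66 and 119 ± 1.60 CPM (0.04, edgeR adjusted p = 0.224). EIF4A2, a helicase paralogue, was at 479, 471, 477 and 491 CPM in control and 339, 327, 336 and 341 CPM in shHNRNPC libraries (-0.51, SE 0.020, edgeR adjusted p = 2.0e-33). EIF4A1, the major helicase, fell far less, from 1701 ± 20.1 to 1622 ± 29.6 CPM (-0.07, SE 0.017), and all of its exon bases are shared with overlapping annotated genes. EIF4A3, the helicase of the exon junction complex rather than of initiation, rose (0.15). The helicase cofactors EIF4H (-0.39) and EIF4B (-0.22) both fell, from 737 ± 10.7 to 562 ± 5.36 CPM and from 815 ± 19.6 to 697 ± 12 CPM.

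EIF4E2, a cap-binding homologue linked to translational repression, was at 91.7, 91.9, 93.8 and 91.4 CPM in control and 119, 119, 114 and 113 CPM in shHNRNPC libraries (0.33, SE 0.028, edgeR adjusted p = 8.3e-17), with 33.2% of its exon bases overlapping other genes. EIF4ENIF1, the eIF4E transporter of processing bodies, was at 40.8 ± 0.702 and 40.3 ± 0.815 CPM (-0.02, edgeR adjusted p = 0.716), and EIF4E3 was at 3.71 ± 0.355 and 3.32 ± 0.404 CPM (-0.16, edgeR adjusted p = 0.316). Over the 12 eIF4 genes 5 rose, 4 fell and 3 did not pass (75% passed, against 77.3% of all genes tested). Their median log2 fold change was 0.01; it was -0.02 with upper-quartile scaling, -0.01 with library totals only and -0.003 without control replicate 4, so no direction is given for the group as a whole.

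Ratios of paralogues within a library do not depend on library scaling, and 6 pairs were compared by exact two-sided permutation tests over the 70 assignments of libraries, with Benjamini-Hochberg adjustment over the pairs. The smallest p that 4 against 4 libraries allow is 0.0286. The pairs were chosen with earlier results of these data known, so these p-values describe how the libraries separate and are not independent evidence. The adjusted p also depends on how many of the chosen pairs reach that smallest p. EIF4A1 over EIF4A2 shifted by 0.44 on the log2 scale, from 1.83 ± 0.0399 in control to 2.27 ± 0.0328 in shHNRNPC libraries (SD, n = 4, exact permutation p = 0.0286, adjusted p = 0.0429). EIF4G1 over EIF4G3 shifted by 0.37 and EIF5A over EIF5A2 by 0.38, at the same p-values (exact permutation test, p = 0.0286, adjusted p = 0.0429 each). In these 3 pairs the more abundant paralogue gained reads relative to the other, in 4 of 4 knockdown libraries against every control. EIF4EBP1 over EIF4EBP2 moved by -0.86, from -0.19 ± 0.0605 to -1.05 ± 0.0396 (exact permutation p = 0.0286, adjusted p = 0.0429). EIF4E over EIF4E2 overlapped between groups, at -0.91 ± 0.0364 and -0.98 ± 0.0474, a difference of -0.07 (exact permutation p = 0.0571, adjusted p = 0.0686). For EEF1A1 over EEF1A2 the few EEF1A2 reads left the ratio undetermined (difference -0.36, SD 0.918 in control, exact permutation p = 0.543).

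**Figure D4:**
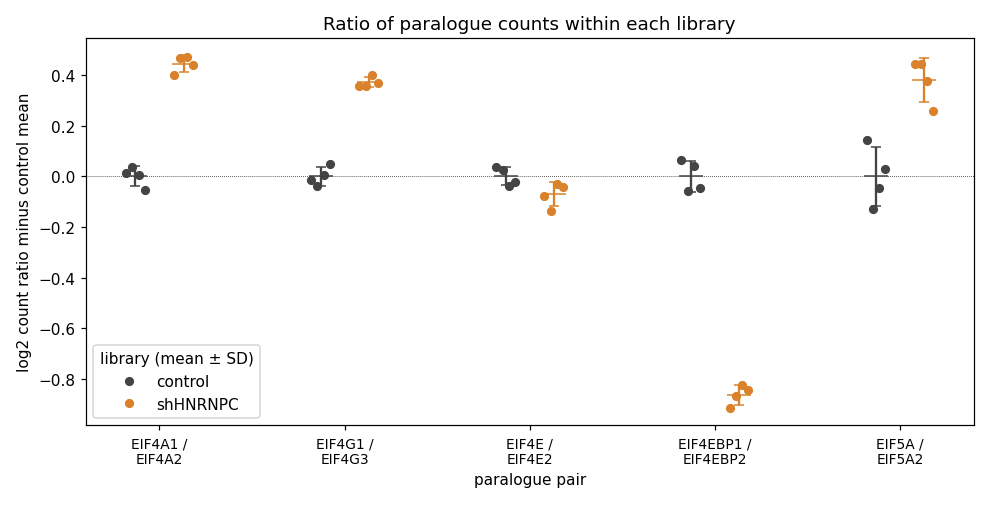
Log2 ratio of counts of 5 paralogue pairs in each library, set to the control mean of the pair (y axis); points are libraries (grey control, orange shHNRNPC) and bars the mean ± SD. The shHNRNPC libraries lie above all controls for EIF4A1 over EIF4A2, EIF4G1 over EIF4G3 and EIF5A over EIF5A2, and below all controls for EIF4EBP1 over EIF4EBP2. For EIF4E over EIF4E2 shHNRNPC replicate 3 lies among the controls and the other shHNRNPC libraries lie below them.

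The subunits of eIF2, the GTPase that carries the initiator tRNA, did not move together. EIF2S1, the alpha subunit whose phosphorylation triggers the integrated stress response, was at 156, 153, 149 and 160 CPM in control and 190, 196, 194 and 191 CPM in shHNRNPC libraries (0.32, SE 0.024, edgeR adjusted p = 6.6e-19). EIF2S2, the beta subunit, fell from 449 ± 10.3 to 344 ± 6.82 CPM (-0.38, SE 0.020), and EIF2S3, the GTP-binding gamma subunit on the X chromosome, from 509 ± 4.78 to 383 ± 11.1 CPM (-0.41, SE 0.020). The alpha subunit thus rose in all 4 knockdown libraries while both other subunits fell in all 4. EIF2S3B, an autosomal copy of EIF2S3, was at 9.40 ± 0.748 and 8.23 ± 0.779 CPM and did not pass (-0.19, edgeR adjusted p = 0.0537). It can share reads with EIF2S3. With both summed the change was -0.40 (SE 0.020), but EIF2S3 holds most of those reads, so the sum says little about EIF2S3B.

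The exchange factor eIF2B, which recharges eIF2 with GTP, was mixed as well. EIF2B2, the beta subunit, fell from 96.6 ± 3.18 to 72.7 ± 3.53 CPM (-0.41, SE 0.033), with 29.3% of its exon bases overlapping other genes, and EIF2B4, the delta subunit, rose from 31.2 ± 0.807 to 36.7 ± 1.79 CPM (0.23, SE 0.047). The catalytic epsilon subunit EIF2B5 fell slightly (-0.12). Changes of EIF2B3 (-0.11, edgeR adjusted p = 0.0366) and EIF2B1 (0.07, edgeR adjusted p = 0.0160) overlapped between groups, and each lost its call without some single libraries (control replicate 2 for both). Among factors that deliver tRNA outside the eIF2 route, EIF2D was at 57.4, 56.3, 55.4 and 59.0 CPM in control and 38.9, 36.8, 36.9 and 40.3 CPM in shHNRNPC libraries (-0.58, SE 0.040, edgeR adjusted p = 2.0e-20), and EIF2A rose from 133 ± 2.22 to 153 ± 2.51 CPM (0.21, SE 0.025). Over the 11 genes of this group 6 fell, 4 rose and 1 did not pass (90.9% passed, against 77.3% of all genes tested).

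eIF3, the largest initiation factor, holds the small subunit ready for the mRNA, and 9 of its 14 genes fell, 3 rose and 2 did not pass (median -0.14). The share that passed, 85.7%, was near the 77.3% of all genes tested, with 64.3% lower against 38.6%. EIF3L was at 638, 635, 653 and 653 CPM in control and 444, 424, 432 and 442 CPM in shHNRNPC libraries (-0.57, SE 0.019, edgeR adjusted p = 1.8e-36), with 52.0% of its exon bases overlapping other genes. EIF3D, which can itself bind the cap, fell from 475 ± 4.6 to 349 ± 7.66 CPM (-0.44, SE 0.020). Other subunits fell by less: EIF3F (-0.30), EIF3I and EIF3E (-0.25 each), EIF3G (-0.16), EIF3A (-0.12), EIF3H (-0.10) and EIF3K (-0.05). The call of EIF3K was lost without control replicate 1 (edgeR adjusted p = 0.0641) or shHNRNPC replicate 3 (0.108). EIF3B, the RNA-binding scaffold of the b-g-i module, was at 323, 325, 314 and 329 CPM in control and 443, 449, 453 and 441 CPM in shHNRNPC libraries (0.47, SE 0.020, edgeR adjusted p = 2.7e-31), and this was the largest rise among the 62 genes. It therefore parted from EIF3I and EIF3G, its partners in that module, which fell. EIF3J, a loosely bound subunit that acts in recycling, was at 131, 130, 126 and 128 CPM in control and 159, 159, 159 and 152 CPM in shHNRNPC libraries (0.29, SE 0.025), and EIF3M rose slightly (0.06, edgeR adjusted p = 0.00504), with overlapping groups and no call under upper-quartile scaling (edgeR adjusted p = 0.120).

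EIF3C and its near-identical neighbour EIF3CL could not be assigned a change. EIF3C was at 41.2, 49.3, 46.7 and 42.5 CPM in control and 35.4, 47.3, 47.2 and 38.8 CPM in shHNRNPC libraries, so replicates 1 and 4 were the low ones in both groups (-0.09, SE 0.117, edgeR adjusted p = 0.532). EIF3CL was at 13.2, 10.8, 10.7 and 36.9 CPM in control and 9.87, 11.3, 10.3 and 9.29 CPM in shHNRNPC libraries (-0.80, SE 0.480, edgeR adjusted p = 0.171). The fold change of EIF3CL rested on control replicate 4 and was -0.18 without it (edgeR adjusted p = 0.0718). With both counts summed the value was -0.26 (SE 0.153, edgeR adjusted p = 0.172). Per kilobase of merged exons EIF3C reached 12.6 CPM in control, below each of the other eIF3 subunits (38.1 to 356 CPM per kb) apart from EIF3CL (5.79); whether reads matching both genes were discarded is not given in the sources used here.

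Of 7 genes for scanning and subunit joining 3 fell, 3 rose and 1 did not pass (85.7% passed, against 77.3% of all genes tested). EIF1, which guards start codon choice, fell from 386 ± 6.88 to 306 ± 7.77 CPM (-0.33, SE 0.021), its paralogue EIF1B fell from 36.6 ± 2.66 to 30.1 ± 2.11 CPM (-0.29, SE 0.052), and EIF1AX was at 123 ± 3.92 and 121 ± 4.20 CPM (-0.03, edgeR adjusted p = 0.359). EIF5, which stimulates GTP hydrolysis by eIF2 and opposes eIF1, rose from 307 ± 7.03 to 360 ± 7.99 CPM (0.23, SE 0.021). EIF5B, the GTPase of subunit joining, was at 200, 208, 198 and 187 CPM in control and 259, 259, 261 and 251 CPM in shHNRNPC libraries (0.38, SE 0.024, edgeR adjusted p = 7.6e-21). EIF6, which keeps free large subunits from joining, fell from 368 ± 7.31 to 288 ± 9.23 CPM (-0.35, SE 0.021). The joining GTPase and the anti-joining factor thus changed in opposite directions, each without overlap between groups. EIF1AD, a nuclear protein related to eIF1A, rose slightly (0.15).

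Other genes of the translation pathway, 37 genes listed for their role and outside the symbol rule, were evenly divided, with 16 higher, 16 lower and 5 not past the threshold (edgeR, background 77.3% in either direction; median -0.01). PAIP1, which links the poly(A)-binding protein to eIF4A and eIF3, was at 44.7, 43.5, 42.3 and 40.1 CPM in control and 86.4, 89.9, 87.1 and 87.7 CPM in shHNRNPC libraries (1.04, SE 0.036, edgeR adjusted p = 3.4e-36), the largest change of the list. The eIF2 phosphatase subunits diverged, as PPP1R15A, the inducible one, fell from 343 ± 9.20 to 181 ± 1.34 CPM (-0.92, SE 0.022), while PPP1R15B, the constitutive one, rose from 55.8 ± 2.98 to 83.6 ± 2.89 CPM (0.58, SE 0.035). MKNK1, a kinase that phosphorylates eIF4E, rose from 32.6 ± 2.44 to 50.7 ± 1.66 CPM (0.63, SE 0.045). MKNK2, the other eIF4E kinase, fell from 126 ± 2.19 to 97.2 ± 1.46 CPM (-0.38, SE 0.027). The enzymes that make hypusine on eIF5A also parted, with DHPS lower (-0.53) and DOHH higher (0.35). MKNK2, DHPS, DOHH and the genes of the next sentence lie outside the naming rule and were chosen after their values were seen. Of the 6 listed diphthamide genes (DPH), whose product modifies eEF2, DPH5, DPH1, DPH6 and DPH7 fell, DPH2 rose and DPH3 did not pass.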

How the data were processed

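The deposited file holds whole-number read counts for each gene in 8 libraries, with no normalisation visible in the values. Per the series design text, poor reads were first dropped by fastp, and the submitters' processing notes name hg38. Aligner, counter, annotation and strandedness: not given in the sources used here. Groups follow the labelled genotype, with 4 libraries each.

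Genes were kept with edgeR's filterByExpr (minimum count 10, minimum total 15), scaled with TMM and tested with the robust quasi-likelihood F test, with Benjamini-Hochberg adjustment over 12001 genes and a threshold of 0.05. SEs were derived from the F statistic, as the size of the log2 fold change over its square root. Paralogue ratios used a prior count of 2. Software was R 4.3.3, edgeR 4.0.16, DESeq2 1.42.0, Python 3.11.15 and BLAST+ 2.17.0. Exon lengths and overlaps came from merged GENCODE release 29 exons (61 of 62 genes matched), and near-identical copies from BLAST of the longest coding transcript against all transcripts (95% identity, 300 bases). Replicate libraries differed by more than sampling noise (chi-square per degree of freedom 2.66 to 3.70 within groups).

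The members, lists and pairs were chosen with earlier results of these data known. Named with full values were HNRNPC, the 8 largest rises and 8 largest falls past the threshold with at least 1 CPM and no overlap, the 6 members with the highest CPM, paralogue pairs, the members of each group with the largest and smallest change, and the 4 largest changes of the pathway list; other members are given with their group. Tested on simulated data for the 12001 genes of this comparison, the fit found 39 of 50 changes of 1.25-fold, 43 of 50 of 1.5-fold and 49 of 50 of 2-fold, with 8 calls among 11801 genes left unchanged. The simulated counts followed the distribution that the fit assumes, and few genes were changed. In the data 77.3% of genes passed, so the simulation does not give the error rate of this comparison. Alternatives were other scalings and filters, DESeq2, a replicate block, left-out libraries and, added after seeing the data, counts summed over near-identical copies.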

Additional observations from a re-analysis of the deposited data

Results flagged for a closer look

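Of 134 sets of 4 libraries (a gene in 1 group), 7 held a library set apart from the other 3 by a gap above the 95% critical value of Dixon's test, and chance flags about 1 in 20 groups. The largest in size was EIF3CL, at 36.88 CPM in control replicate 4 against 10.7 to 13.2 CPM in the other controls. EIF2S3B was low in the same library, at 8.291 CPM against 9.63 to 9.90 CPM. EEF2K was at 54.59 CPM in control replicate 3 against 57.8 to 58.0 CPM, and EIF1 at 396.5 CPM in control replicate 1 against 382 to 384 CPM. In the knockdown group EIF3J was at 152.2 CPM in replicate 4 against 159 CPM in the others, and EIF4ENIF1 at 41.56 CPM in replicate 2 against 39.9 to 40.0 CPM. PPP1R15B was at 87.93 CPM in shHNRNPC replicate 2 against 81.9 to 82.7 CPM.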

How the results depend on the processing

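Over 16 alternatives (3 other scalings, DESeq2, 2 filters, the replicate block, each of 8 libraries left out, and shHNRNPC replicates 1 and 4 left out together) the translation factors gave 31 to 34 falls and 16 to 18 rises, and the pathway list 16 falls and 15 to 17 rises. Of the 51 translation factor genes called, 47 passed in their direction under every one of these. EIF2B1 did not pass with upper-quartile scaling (adjusted p = 0.130), library totals only (0.0908), without control replicate 2 (0.0746), without shHNRNPC replicate 1 (0.0854) or without shHNRNPC replicates 1 and 4 (0.227). EIF3M did not pass with upper-quartile scaling (0.120), library totals only (0.0625) or without shHNRNPC replicates 1 and 4 (0.0636). EIF2B3 did not pass with DESeq2 (0.0645) or without control replicate 2 (0.118) or 4 (0.0988), or shHNRNPC replicate 2 (0.12) or 3 (0.0871), and EIF3K without control replicate 1 (0.0641) or shHNRNPC replicate 3 (0.108). Falls of at least 1.5-fold numbered 3 to 5 when 1 library was left out, and 6, with EIF2D and EIF3L added, under upper-quartile scaling, library totals only and without shHNRNPC replicates 1 and 4. In the other direction, EIF2S3B passed with upper-quartile scaling (0.0281), library totals only (0.0320) and without control replicate 4 (0.0210) or shHNRNPC replicate 4 (0.0221), and EEF1AKMT1 without shHNRNPC replicate 1 (0.0495).

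Without shHNRNPC replicates 1 and 4, EIF3C was at 0.077 and EIF4ENIF1 at 0.00073 log2, both opposite in sign and not called; the cause was not tested. The median of the eIF4 genes changed sign with upper-quartile scaling (-0.017) and library totals only (-0.012), and ranged from -0.0026 (without control replicate 4) to 0.020 when 1 library was left out. Deviations of libraries with the same replicate number correlated at -0.055 to 0.017, so the numbers were not taken to pair them. With the replicate block 34 members fell and 18 rose, EIF3C passing (-0.09, adjusted p = 0.0471), HNRNPC was at -4.11, and the pathway list gave 16 and 16. Leaving out 1 library gave differences of 0.43 to 0.46 for EIF4A1 over EIF4A2, 0.36 to 0.39 for EIF4G1 over EIF4G3, 0.34 to 0.43 for EIF5A over EIF5A2, -0.88 to -0.84 for EIF4EBP1 over EIF4EBP2, -0.09 to -0.05 for EIF4E over EIF4E2 and -0.81 to -0.11 for EEF1A1 over EEF1A2. These are values with no test. Scaling moved the median of all genes by -0.027 to 0.0010 log2. Depth limits EEF1A2, EIF4EBP3 and EIF4E1B, which were too low to test.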
